A study of Homo sapiens with 6 samples.

Results

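The histone lysine methyltransferases, the partners of the Polycomb repressive complex PRC2 and the histone lysine demethylases were examined in A549 lung adenocarcinoma cells upon knock-down of KMT9α. The members were 45 genes given by symbol, of 23180 gene symbols in the deposited count table. They were 31 methyltransferases and PRC2 partners and 14 demethylases, and KMT9 itself was not among them. All 45 were listed, and all 45 were tested after the filter on low counts. A549 is an established human cell line. The RNA-Seq data comprised 3 siControl samples and 3 siKMT9α#1 samples, the latter treated with an siRNA against KMT9α, all labelled as biological replicates and taken at passage 11. The cells received 65 nM siRNA and were collected 3 days later. Since RNA-Seq was available for a single siRNA against KMT9α, an effect of losing KMT9α and any other effect of that siRNA cannot be told apart. P-values refer to the spread between these 6 samples.

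Histone lysine methyltransferases transfer methyl groups from S-adenosylmethionine to defined lysines of the histones, and demethylases of the amine oxidase and Jumonji families remove them. Methylation of H3K4 marks active promoters and enhancers, methylation of H3K36 and H3K79 accompanies transcribed gene bodies, and methylation of H3K9 and H3K27 marks constitutive heterochromatin and Polycomb-silenced genes. KMT9 is a heterodimer of KMT9α (gene N6AMT1) and KMT9β (gene TRMT112) that monomethylates H4K12. Like DOT1L among the members, and unlike the SET domain enzymes, it has no SET domain.

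Each gene was represented by its most abundant transcript. Values are CPM (read counts scaled to the library size, with TMM factors), and totals on these transcripts ran from 13740097 to 19832395.5 counts per sample. N6AMT1 stood at 10.2, 10.9 and 11.4 CPM with siControl and at 2.87, 3.22 and 3.35 CPM with siKMT9α#1 (log2 fold change -1.77). Its adjusted p was 1.43e-10 by the quasi-likelihood F test of edgeR, which with the Benjamini-Hochberg method over 13877 genes stands behind every adjusted p given here. Its partner TRMT112 fell by 0.38 on the log2 scale. Of 5 epithelial markers, the keratins KRT7, KRT8 and KRT18 were abundant in every sample (502 to 2163 CPM), whereas EPCAM and CDH1 were low, at 0.44 to 9.68 CPM. With siKMT9α#1, 3 of the 5 fell, namely KRT8 (log2 fold change -1.28), KRT18 (-0.75) and EPCAM (-2.76), CDH1 rose (1.34), and KRT7 did not pass the test (0.01), although it was called higher with the length offset. The part of these markers' changes in the members' values was not tested. Of the fibroblast, immune and endothelial markers reported here, only COL1A1 and CD68 passed the filter. CD68, a lysosomal protein that is not exclusive to immune cells, was at 77.7 to 84.5 CPM with siControl and 27.04 to 28.6 CPM with siKMT9α#1, while PTPRC and CD3E were at or near 0. In bulk RNA, fewer cells of a kind and less RNA per cell cannot be told apart.

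Upon KMT9α knock-down, most of the histone methylation enzymes rose at the RNA level. With an adjusted p under 0.05, 39 of the 45 members changed, 32 higher and 7 lower. Among all genes tested, 75.6% changed by this rule, so that a change as such sets no member apart. Of all genes 37.1% were higher and 38.5% lower, a near balance that the members did not show. By the stricter threshold of an unadjusted P below 1e-08 with an absolute log2 fold change above 0.26, 22 members changed, 20 higher and 2 lower. The background by this threshold was 24.2% of genes, with 13.5% higher and 10.7% lower. In 38 members, the ranges of the siControl and siKMT9α#1 samples did not overlap, which held for 77.0% of all genes tested. The median log2 fold change was 0.47 over the members and -0.01 over all genes. More than 2-fold higher were 9 members, namely SUZ12, KMT2A, WHSC1, WHSC1L1, KMT2E, KDM5B, SETD2, SUV39H1 and SETD5, and more than 2-fold lower was KDM1B alone. With the offset for transcript length described below, KMT2E (log2 fold change 0.92), KDM5B (0.92), SETD2 (0.77) and SETD5 (0.79) were less than 2-fold higher.

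The members' transcripts were long, with a median of 5558 bases against 2922 bases over all genes tested, and longer transcripts were higher after knock-down throughout the data. With an offset that removes the trend with length from each sample, 36 members changed at an adjusted p under 0.05, 28 higher and 8 lower. In the same fit 10483 of the 13877 genes tested changed by this rule. The members' median fell from 0.47 to 0.25. At the stricter threshold 16 members remained in that fit, 13 higher and 3 lower, of which 15 were shared with the fit without the offset. Among all genes tested, 3534 passed that threshold with the offset. For the members, the values with this length offset are therefore given below where they change a call or move a value by more than 1.5 times.

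**Figure D1:**
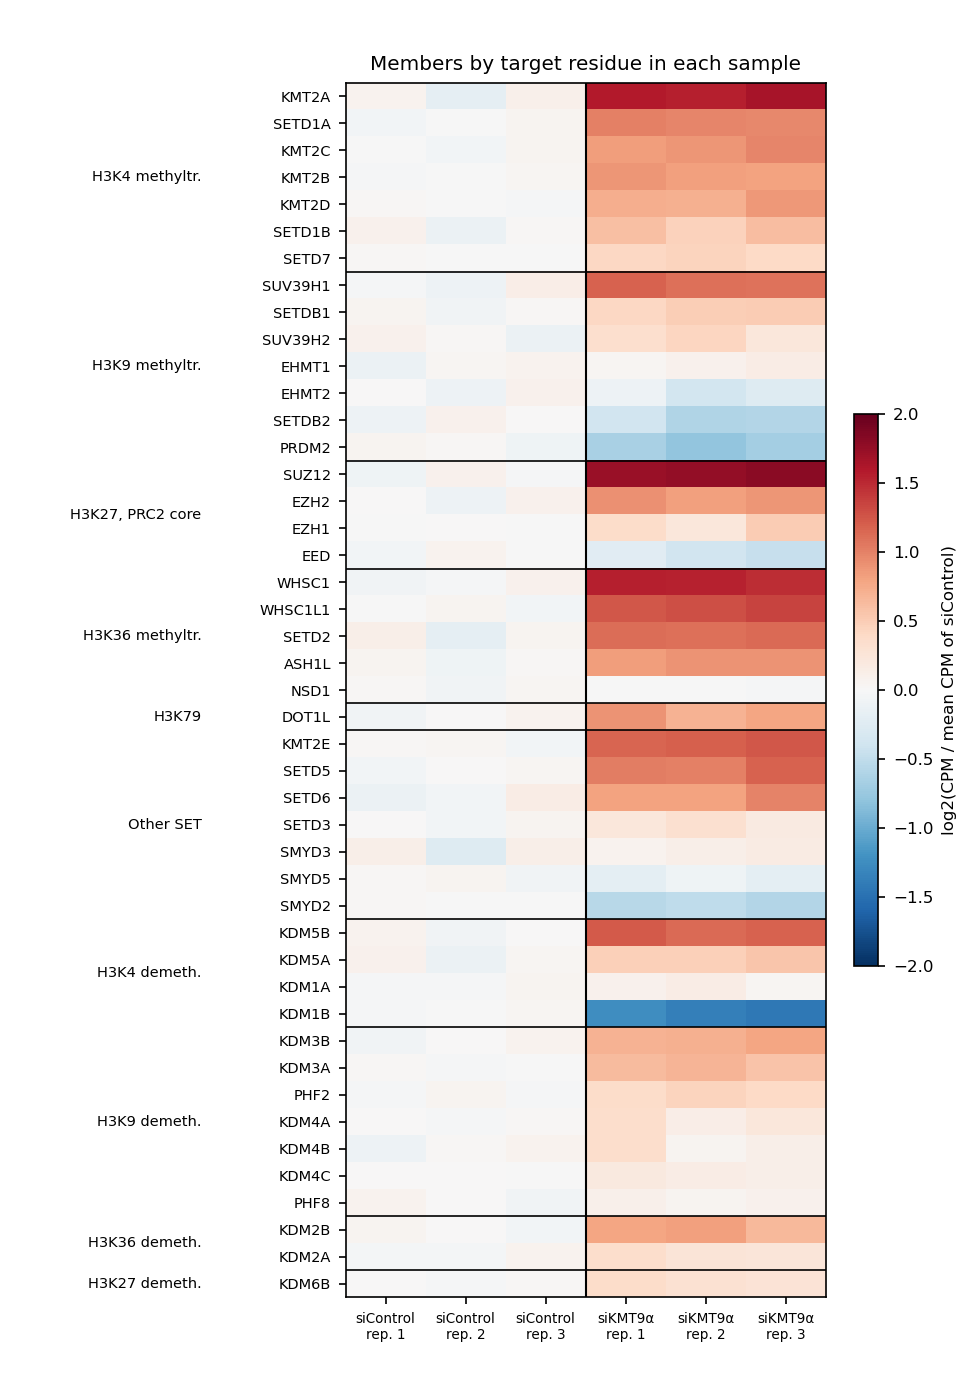
Colour shows the log2 ratio of each sample's CPM to the mean CPM of the siControl samples, for 45 members (rows, grouped by target residue) in 6 samples (columns). The 3 siKMT9α#1 samples resemble each other in nearly every row, with SUZ12, KMT2A and WHSC1 the reddest and KDM1B the bluest.

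Among the H3K4 methyltransferases, all 7 genes rose, 5 of them past the stricter threshold, with a median log2 fold change of 0.83. All 7 still rose with the length offset, but with a median of 0.35, and only KMT2A and SETD1A passed the stricter threshold. KMT2A, which methylates H3K4 at promoters and is rearranged in acute leukaemias, stood at 32.3, 27.2 and 33.0 CPM with siControl and at 93.0, 90.8 and 96.2 CPM with siKMT9α#1. Every knock-down sample thus held about 3 times the mean of the controls, a log2 fold change of 1.59 (standard error, SE, 0.06, adjusted p = 3.99e-14, edgeR). Its transcript of 16514 bases is among the longest of the members, and with the length offset the log2 fold change was 1.05.

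SETD1A, a catalytic subunit of the complexes that place most H3K4 trimethylation, was at 17.8, 18.4 and 19.1 CPM and rose to 37.03, 36.4 and 35.8 CPM (log2 fold change 0.98). KMT2B, the close paralog of KMT2A, was at 53.6, 54.6 and 56.1 CPM and rose to 101, 96.2 and 96.0 CPM (0.83). In both genes the controls and the knock-down samples were far apart, and the spread within either group was small. KMT2C and KMT2D, which monomethylate H3K4 at enhancers, behaved alike. KMT2C went from 51.9, 50.4 and 54.0 CPM to 92.5, 96.4 and 103 CPM (0.90), and KMT2D from 85.8, 84.2 and 82.8 CPM to 140, 138 and 153 CPM (0.77). Both pairs of groups were separate, but with the length offset the log2 fold changes of KMT2C and KMT2D were 0.35 and 0.18, and neither passed the stricter threshold, nor did KMT2B (0.48). SETD1B (0.56), the paralog of SETD1A, and SETD7 (0.42), a monomethyltransferase that also acts on non-histone proteins, rose past the adjusted p only, and with the length offset they were at 0.22 and 0.13. SETD7 also passed the stricter threshold without siControl replicate 1 or siKMT9α#1 replicate 3.

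The core of PRC2 did not move as a unit. EZH2 and EZH1 are its alternative catalytic subunits for H3K27, SUZ12 is the scaffold, and EED binds the methylated product and stimulates the enzyme. SUZ12 had the largest log2 fold change of all 45 members, 1.77 (SE 0.06, adjusted p = 2.70e-15, edgeR). It stood at 25.1, 28.2 and 26.2 CPM with siControl and at 87.2, 89.4 and 93.0 CPM with siKMT9α#1. Listed as NM_015355 on the plus strand of chromosome 17 of hg19 from 30264044 to 30328057, it matched an annotated gene of 16 exons. EZH2, listed as NM_004456 on the minus strand of chromosome 7 from 148504464 to 148581441 with 20 exons, was at 16.6, 15.4 and 17.5 CPM with siControl and at 31.1, 29.2 and 30.4 CPM with siKMT9α#1. Its log2 fold change was 0.87 (SE 0.07, adjusted p = 1.95e-09). EZH1 changed less, from 31.6, 32.2 and 31.9 CPM to 41.2, 37.6 and 45.5 CPM, a log2 fold change of 0.38 (adjusted p = 5.71e-05) that was 0.23 with the length offset. EED went the other way. Its mean was 31.5 ± 1.36 CPM with siControl and 24.7 ± 2.05 CPM with siKMT9α#1 (n = 3 each, SD), and its log2 fold change was -0.36 (adjusted p = 0.00018). The groups did not overlap for any of the 4 genes. With the length offset SUZ12 was at 1.63, EZH2 at 0.90 and EED at -0.30, so that the opposite directions of SUZ12 and EED did not depend on it.

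Because EZH1 and EZH2 take the same place in the complex, their ratio was compared within each sample, on CPM per kilobase. The log2 ratio of EZH2 to EZH1 was -0.15, -0.28 and -0.09 with siControl and 0.38, 0.42 and 0.20 with siKMT9α#1. On this scale EZH1 was thus the more abundant of the pair in each control sample, and EZH2 in each knock-down sample. The means were -0.18 ± 0.10 and 0.33 ± 0.12 (SD, n = 3 each), a difference of 0.51 (two-sided exact permutation test, p = 0.1, the smallest p that 3 samples against 3 can give). Without scaling to length, the log2 ratios of CPM were -0.93, -1.06 and -0.87 with siControl and -0.40, -0.36 and -0.58 with siKMT9α#1. EZH1 was then the higher in every sample, so which gene was the more abundant depended on the scale. The difference between the groups is the same on both scales by construction, since scaling to length shifts every log2 ratio equally.

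**Figure D2:**
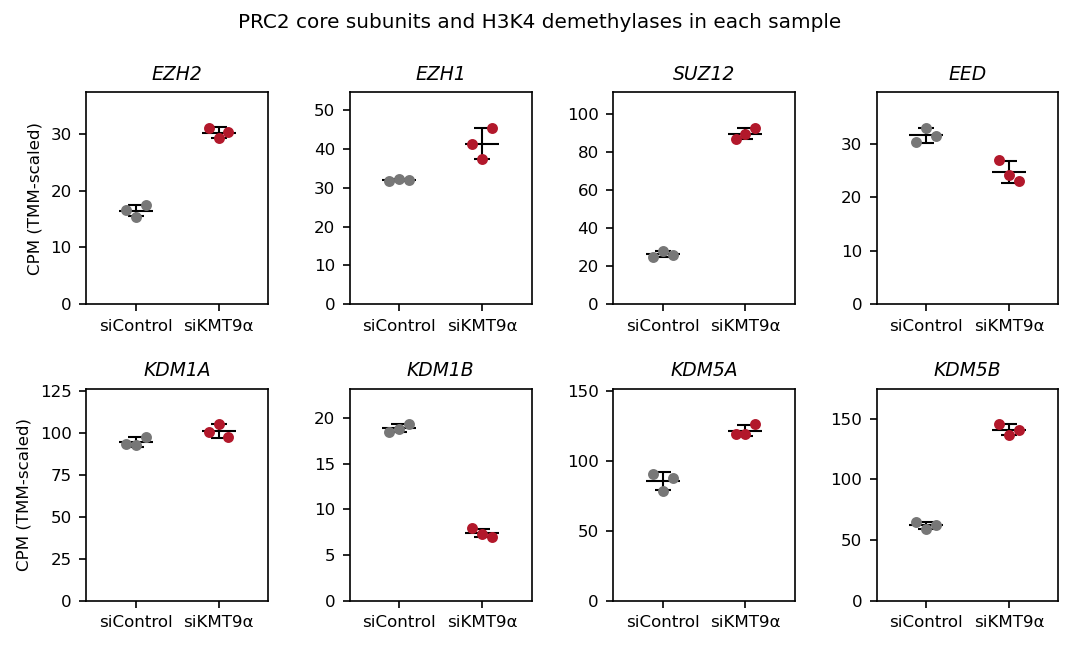
Points are TMM-scaled CPM in each of 3 siControl and 3 siKMT9α#1 samples, on axes that start at 0, with the mean and SD of each group as bars. SUZ12, EZH2, EZH1, KDM5A and KDM5B lie higher in every siKMT9α#1 sample, EED and KDM1B lower, and the groups of KDM1A overlap.

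The promoters of EZH2, SUZ12, EED and KDM1B are shown because these genes, 3 subunits of one complex and the most strongly lowered demethylase, moved in different directions. Each sequence holds 250 bases before and 50 bases after the annotated start, read 5′ to 3′ on the gene's strand from RefSeq promoters of GRCh38.p14, and was located by exact match in GRCh37. Capitals mark the letters searched on both strands, namely the E2F-type 8-mers TTTCCCGC, TTTCGCGC, TTTGCCGC and TTTGGCGC, the CCAAT box CCAAT and the GC box GGGCGG. A GC box can share letters with a neighbouring GC box, as in EZH2, or with an E2F-type 8-mer. EZH2 lies at chr7:148581334-148581633 on the minus strand, SUZ12 at chr17:30263776-30264075, EED at chr11:85955545-85955844 and KDM1B at chr6:18155403-18155702, all 3 on the plus strand.
EZH2: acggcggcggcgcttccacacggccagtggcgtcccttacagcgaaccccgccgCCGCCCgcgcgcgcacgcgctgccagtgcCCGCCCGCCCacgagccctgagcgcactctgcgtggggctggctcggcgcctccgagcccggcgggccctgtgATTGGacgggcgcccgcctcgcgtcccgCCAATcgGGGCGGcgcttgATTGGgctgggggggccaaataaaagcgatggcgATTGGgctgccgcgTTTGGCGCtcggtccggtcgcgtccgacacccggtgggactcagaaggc
SUZ12: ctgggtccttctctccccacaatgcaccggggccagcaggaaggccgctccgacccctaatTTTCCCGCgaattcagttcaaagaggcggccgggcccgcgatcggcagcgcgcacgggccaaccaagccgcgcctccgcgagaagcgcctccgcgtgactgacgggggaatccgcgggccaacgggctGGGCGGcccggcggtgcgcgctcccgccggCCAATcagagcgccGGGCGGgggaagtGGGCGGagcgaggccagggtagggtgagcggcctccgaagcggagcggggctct
EED: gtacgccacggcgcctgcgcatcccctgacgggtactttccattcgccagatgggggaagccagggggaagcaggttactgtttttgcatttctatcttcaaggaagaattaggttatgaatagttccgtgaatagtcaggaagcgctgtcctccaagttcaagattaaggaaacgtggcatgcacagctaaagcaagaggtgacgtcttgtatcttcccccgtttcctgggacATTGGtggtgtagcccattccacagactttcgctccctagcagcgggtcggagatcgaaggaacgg
KDM1B: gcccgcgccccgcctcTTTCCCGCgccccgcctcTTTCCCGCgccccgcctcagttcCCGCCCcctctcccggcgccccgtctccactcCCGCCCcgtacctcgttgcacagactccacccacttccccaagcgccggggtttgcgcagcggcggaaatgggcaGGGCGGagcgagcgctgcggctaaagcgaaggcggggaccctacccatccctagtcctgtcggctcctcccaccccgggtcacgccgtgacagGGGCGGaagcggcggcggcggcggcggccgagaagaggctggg

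An E2F-type 8-mer was found in 3.30% of 34796 RefSeq promoters and in 4 of the 41 members whose promoter could be located, namely EZH2, SUZ12, EZH1 and KDM1B. It began 1 base after the start in EZH2, 189 bases before it in SUZ12 and 115 bases before it in EZH1. KDM1B held 2 copies, 234 and 216 bases before the start. The 8-mer was therefore present in 3 members that rose and in the member that fell most, and these letters were not in the EED window. The CCAAT box was in 16 of the 41 members (34.6% of all promoters) and the GC box in 32 (44.9%). The sets are unlike. All promoters include several for some genes and genes not expressed here, whereas each member has 1 promoter, the nearest to its deposited start. Such a match describes letters and is neither a binding site nor a cause. DOT1L, SETD1B, WHSC1 and WHSC1L1 were not located.

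The H3K9 methyltransferases were split, with 3 genes higher, 3 lower and a median log2 fold change of 0.10, which was -0.09 with the length offset. SUV39H1, which trimethylates H3K9 at pericentromeric heterochromatin, was at 11.2, 10.6 and 12.5 CPM with siControl and at 25.8, 24.4 and 24.2 CPM with siKMT9α#1. Its values roughly doubled in each knock-down sample, a log2 fold change of 1.11 (SE 0.08, adjusted p = 3.66e-10, edgeR) that was 1.14 with the length offset. Its paralog SUV39H2 rose by 0.33 only, and SETDB1, which silences retroelements together with TRIM28, by 0.47. PRDM2, a retinoblastoma-binding zinc finger protein with a PR domain, fell from 37.9, 37.05 and 34.3 CPM to 23.3, 21.0 and 22.7 CPM. Its log2 fold change was -0.70 (SE 0.07, adjusted p = 2.10e-08). Every knock-down sample lay below every control, and with the length offset the value was -1.02. PRDM2 passed the stricter threshold in 2 of the 6 fits that each left out 1 sample, the fits without siControl replicate 1 and without siControl replicate 3. SETDB2 fell as well (-0.52, adjusted p = 8.26e-05).

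EHMT1 and EHMT2 form the heterodimer that places H3K9 dimethylation in euchromatin. EHMT2 was at 15.0 ± 1.03 CPM with siControl and 12.8 ± 1.20 CPM with siKMT9α#1 (SD, n = 3 each), and the groups overlapped. Its log2 fold change of -0.24 (adjusted p = 0.0255) did not keep an adjusted p under 0.05 with DESeq2, with GC and length offsets, or when siControl replicate 1 or 3 or siKMT9α#1 replicate 2 or 3 was left out. EHMT1 did not pass the test (0.10, adjusted p = 0.2), nor with the length offset (-0.09).

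Of the 5 H3K36 methyltransferases, 4 rose past the stricter threshold, and the group had the highest median log2 fold change of the methyltransferase groups with more than 1 gene, 1.12. WHSC1, also called NSD2, which dimethylates H3K36 and is activated by a translocation in multiple myeloma, was at 28.2, 29.3 and 31.7 CPM with siControl and at 86.9, 86.1 and 82.3 CPM with siKMT9α#1. This is a log2 fold change of 1.51 (SE 0.06, adjusted p = 2.02e-14, edgeR). Its paralog WHSC1L1, or NSD3, was at 13.6, 14.2 and 13.1 CPM and rose to 32.3, 33.2 and 34.8 CPM (1.30). Both stood more than 2-fold higher in each knock-down sample than in any control. SETD2, which trimethylates H3K36 in step with elongating RNA polymerase II, was at 51.9, 42.5 and 49.7 CPM and rose to 105, 104 and 106 CPM (1.12). ASH1L, of the Trithorax group, went from 68.9, 62.1 and 67.1 CPM to 118, 124 and 124 CPM (0.88). It was at 0.43 with the length offset and missed the stricter threshold, which left 3 genes of the group past it in the upward direction. The median with the offset was 0.77, WHSC1 was at 1.19, WHSC1L1 at 1.09 and SETD2 at 0.77.

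NSD1, the remaining paralog, was the exception. It stood at 82.2 ± 3.73 CPM with siControl and 81.4 ± 0.44 CPM with siKMT9α#1 (SD, n = 3 each), with overlapping groups and a log2 fold change of -0.01 (adjusted p = 0.809). For a transcript of 12938 bases this lies below the trend with length, and with the length offset its log2 fold change was -0.49 (adjusted p = 1.20e-08). It then passed the stricter threshold, so the call, though not the sign, changed with the handling of length. NSD1 was also called, at -0.12, when only the library size was used for scaling. DOT1L, the H3K79 methyltransferase and the only one of the methyltransferases here that lacks a SET-type catalytic domain, was at 21.3, 22.5 and 23.6 CPM and rose to 41.9, 36.5 and 38.8 CPM. Its log2 fold change was 0.80 (SE 0.07, adjusted p = 4.46e-09), and 0.49 with the length offset, where it missed the stricter threshold.

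Among the 7 other SET domain proteins, whose substrates are partly not histones, 4 rose and 2 fell. KMT2E, a KMT2 homolog without detectable methyltransferase activity of its own, was at 25.6, 25.9 and 24.2 CPM and rose to 56.3, 58.0 and 59.5 CPM (log2 fold change 1.20). SETD5, a chromatin protein mutated in intellectual disability, was at 59.9, 62.6 and 63.6 CPM and rose to 127, 125 and 140 CPM (1.08). Every knock-down sample held about 2-fold the control level of both. SETD6, which methylates the NF-κB subunit RELA, was at 14.0, 14.7 and 16.8 CPM and rose to 26.5, 26.5 and 30.1 CPM (0.87), and it missed the stricter threshold without siControl replicate 2, siKMT9α#1 replicate 2 or siKMT9α#1 replicate 3. The actin methyltransferase SETD3 rose by 0.24. Of the SMYD proteins, SMYD2, which methylates p53, fell by 0.55 on the log2 scale (adjusted p = 8.24e-08), with means of 43.0 ± 0.54 CPM and 29.4 ± 0.72 CPM (n = 3 each, SD). SMYD5 was slightly lower (-0.16, adjusted p = 0.0144), a call lost with DESeq2, with the length offset (-0.11), with GC and length offsets (-0.035, adjusted p = 0.561), and without siControl replicate 1, siControl replicate 2 or siKMT9α#1 replicate 1. SMYD3 did not pass the test (0.12, adjusted p = 0.239), but its log2 fold change of 0.26 with the length offset did.

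Of the 14 demethylases, 10 rose and 1 fell, 5 of them past the stricter threshold, with a median log2 fold change of 0.30 against 0.77 for the 31 methyltransferases and PRC2 partners. Of the demethylases 5 rose and 2 fell with the length offset, 3 of them past the stricter threshold, and the medians were 0.08 and 0.34. With GC and length offsets 6 rose and 2 fell. The difference between the classes is given as a description and was not tested.

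The H3K4 demethylases held the largest fall of the whole family. KDM1A and KDM1B are the flavin-dependent demethylases, of which KDM1A (LSD1) works in the CoREST repressor complex and KDM1B (LSD2) in transcribed gene bodies and in oocytes. KDM1B, listed as NM_153042 on the plus strand of chromosome 6 from 18155619 to 18224084 with 18 exons, was at 18.5, 18.8 and 19.3 CPM with siControl and at 7.94, 7.31 and 7.01 CPM with siKMT9α#1. Each knock-down sample held less than 0.5 times the lowest control. The log2 fold change was -1.35 (SE 0.09, adjusted p = 8.31e-11, edgeR), and -1.44 with the length offset. KDM1A was at 94.6 ± 2.86 CPM and 101 ± 3.89 CPM (n = 3 each, SD) with overlapping groups. Its log2 fold change of 0.10 (adjusted p = 0.0896) did not pass the test. It was 0.13 and called without siKMT9α#1 replicate 3, and -0.01 and not called when only the library size was used for scaling. KDM5B, a Jumonji demethylase of H3K4 trimethylation, was at 64.99, 59.0 and 62.1 CPM and rose to 145, 137 and 140 CPM (1.18, SE 0.05). Its paralog KDM5A, which binds the retinoblastoma protein, was at 85.5 ± 6.21 CPM and 121 ± 4.03 CPM (n = 3 each, SD). It rose by 0.51 on the log2 scale, a value that was 0.08 and no longer called with the length offset. Without siControl replicate 1 it passed the stricter threshold. The flavin-dependent paralogs thus differed in size of change, and so did KDM5A and KDM5B. A further KDM5 paralog, KDM5C, which is not a member, was between them at 0.88 without the offset.

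Of the 7 H3K9 demethylases, 5 rose and none fell, with a median log2 fold change of 0.24. In the fit with the length offset 3 rose, PHF8 fell and the median was 0.10. KDM3A, a hypoxia-inducible demethylase, was at 120, 116 and 116 CPM and rose to 182, 188 and 174 CPM (0.63). KDM3B was at 64.99, 68.5 and 71.8 CPM and rose to 111, 112 and 118 CPM (0.73). In both, all knock-down samples were above all controls, and with the length offset they were at 0.48 and 0.45, KDM3B without passing the stricter threshold. PHF2 rose by 0.40, or 0.20 with that offset. The KDM4 genes, which act on trimethylated H3K9 and H3K36, changed little, with log2 fold changes of 0.24 for KDM4A, 0.18 for KDM4B and 0.16 for KDM4C. KDM4B did not pass the test (adjusted p = 0.0715), but it did without the filter on low counts and without siControl replicate 3 or siKMT9α#1 replicate 2. KDM4A was at 0.10 and KDM4C at 0.0023 with the length offset. The calls of both were lost with that offset and with the library size alone, and that of KDM4C also without siKMT9α#1 replicate 1. PHF8 did not pass the test (0.08, adjusted p = 0.263). With the length offset PHF8 was at -0.16 with an adjusted p of 0.023, so its direction depended on the fit.

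For H3K36, KDM2B, which recruits a variant Polycomb complex to CpG islands, was at 27.4, 26.4 and 25.3 CPM and rose to 45.3, 46.6 and 41.4 CPM (log2 fold change 0.75). It missed the stricter threshold without siControl replicate 2 or siKMT9α#1 replicate 2, and with the length offset (0.55). KDM2A rose by 0.28, which became -0.02 with the length offset. The H3K27 demethylase KDM6B (JMJD3) rose by 0.31 and was at 0.03, without a call, with the length offset, but at 0.21 and called with GC and length offsets (adjusted p = 0.00109). Among the demethylases, KDM1B, KDM3A and KDM5B were those past the stricter threshold both with and without that offset.

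**Figure D3:**
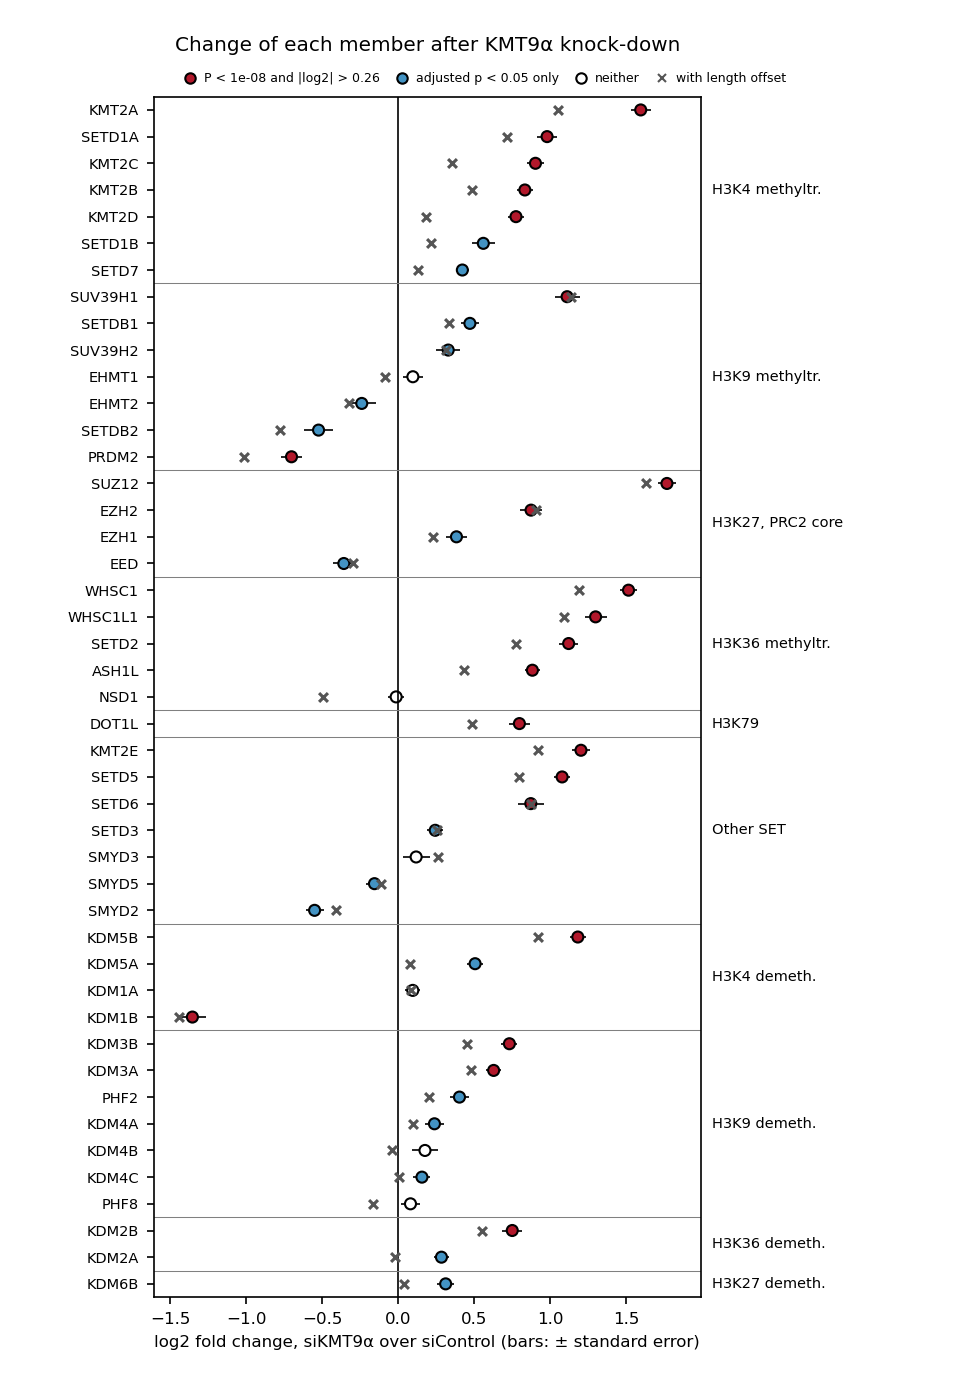
Log2 fold change of siKMT9α#1 over siControl for 45 members grouped by residue, with the standard error as bars, filled by the threshold passed, and with the value under the length offset as crosses. The crosses lie left of the points for 38 of 45 members. EZH2, SUV39H1, SETD3 and SETD6 are among those that keep nearly the same place, while SUZ12 moves from 1.77 to 1.63 and KDM1B from -1.35 to -1.44.

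The partners of these enzymes were taken from lists of complex subunits. Among all genes tested, 75.6% changed at the adjusted p and 24.2% passed the stricter threshold. A call as such therefore sets no gene of these lists apart. Of 11 COMPASS subunits, which hold the KMT2 and SETD1 enzymes, 6 rose and 1 fell, and WDR5 (0.71) and MEN1 (1.03) passed the stricter threshold. MEN1, which encodes menin and tethers KMT2A and KMT2B, went from 14.6 to 15.5 CPM with siControl to 28.4 to 32.5 CPM with siKMT9α#1. Of 7 accessory subunits of PRC2, 4 rose and 2 fell, with AEBP2 (0.71) past the stricter threshold. Of 6 subunits of the CoREST complex around KDM1A, 4 rose and 1 fell. The deacetylases HDAC1 (0.56) and HDAC2 (0.65) were higher, whereas the scaffold RCOR1 was lower (-0.74, 51.1 to 53.1 CPM against 30.3 to 32.2 CPM). Of 4 partners of DOT1L, 3 rose, with MLLT1 (0.95) and MLLT10 (0.76) past the stricter threshold.

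In the list of readers and cofactors of H3K9 methylation, 4 of 6 genes fell and 2 rose. CBX5, which encodes HP1α, fell from 111 to 118 CPM with siControl to 51.4 to 55.2 CPM with siKMT9α#1 (log2 fold change -1.10), while WIZ (0.93), a partner of the EHMT1 and EHMT2 heterodimer, and CBX1 (0.51), or HP1β, rose. Among 3 methyltransferases of H4K20, KMT5A, the monomethyltransferase, rose by 1.28 to between 133 and 141 CPM, and of the others 1 rose and 1 fell. Of 11 further methyltransferases and demethylases, 9 passed the filter, of which 5 rose and 3 fell, and KDM5C (0.88) passed the stricter threshold. Medians were 0.29 for COMPASS, 0.15 for the PRC2 accessory subunits, 0.37 for CoREST, 0.52 for the DOT1L partners and -0.33 for the H3K9 cofactors. With the length offset they were 0.21, 0.18, 0.15, 0.41 and -0.28, and of the 9 further enzymes tested 2 rose and 4 fell. In that fit 3 COMPASS subunits, 3 PRC2 accessory subunits and 1 DOT1L partner were called lower. Of the CoREST subunits 3 rose, and 1 higher and 1 lower passed the stricter threshold. Of the H3K9 cofactors 1 higher and 2 lower passed it. Values of single genes in these lists are given without the offset.

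The size of change followed transcript length among the members as it did among all genes. Over all genes tested, the median log2 fold change was -0.17 for transcripts of at most 2000 bases, -0.04 up to 4000, 0.12 up to 6000, 0.22 up to 8000 and 0.36 above 8000 bases. The members' medians in the same classes were -0.22, 0.17, 0.40, 0.73 and 0.83, over 2, 10, 11, 13 and 9 members. Within the longest class 8 of 9 members were called higher, against 59.8% of the genes, and within the class from 2000 to 4000 bases 5 of 10 were called higher, against 35.2%. Spearman's rho between length and log2 fold change, as a description across genes of the same 6 libraries, was 0.20 for the 13877 genes and 0.38 for the 45 members, and 0.12 for the members with the length offset. Members well above their class median include transcripts of moderate length, such as SUZ12 (4446 bases), SUV39H1 (2718 bases) and EZH2 (2684 bases). Neither the origin of the trend nor its part in the members' values was tested beyond this offset.

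**Figure D4:**
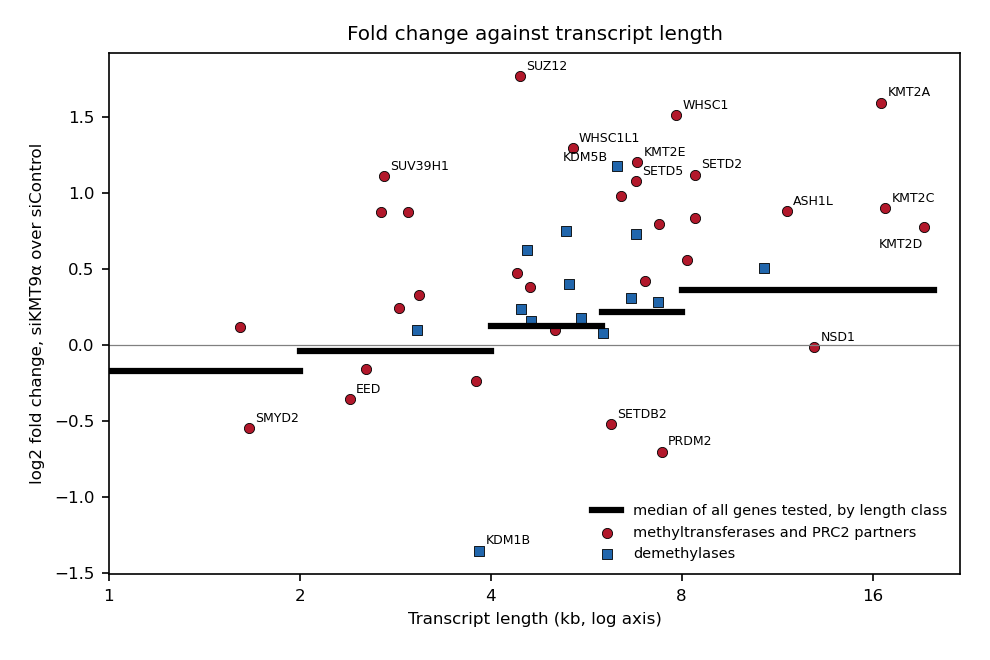
Log2 fold change against transcript length in kilobases (log axis) for 31 methyltransferases and PRC2 partners (circles) and 14 demethylases (squares), with black bars for the median of all genes tested in 5 length classes, the first and last of which are open-ended. The bars climb from -0.17 to 0.36, and most members lie above the bar of their class, with KDM1B, PRDM2 and SETDB2 well below.

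On a scale of CPM per kilobase, levels could be compared between members. With siControl, KDM1A had the highest level, 30.8 ± 0.93 CPM per kilobase (SD, n = 3), followed by SMYD5 at 28.05 ± 1.22, SETD7 at 26.6 ± 0.36, SMYD2 at 25.9 ± 0.32 and KDM3A at 25.7 ± 0.45, of which the last pair did not differ beyond their spread. KMT2A had the lowest level, 1.87 ± 0.19, below SETD1B at 2.16 ± 0.15. KMT2B, another of the large H3K4 methyltransferases, was at rank 19 of 45. With siKMT9α#1 the order at the top was KDM3A at 39.7 ± 1.52, SETD7 at 35.6 ± 0.45 and KDM1A at 33.0 ± 1.27 CPM per kilobase. SUZ12 moved from rank 25 to rank 7 of 45, and KDM1B from rank 31 to rank 44. SETDB2 was then the lowest, at 1.55 ± 0.14. Within PRC2, EED was the most abundant core subunit per length with siControl (13.2 ± 0.57), about 2-fold above EZH1, EZH2 and SUZ12 (6.93, 6.14 and 5.96). With siKMT9α#1, SUZ12 was the most abundant (20.2 ± 0.65) and EED stood at 10.3 ± 0.85.

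**Figure D5:**
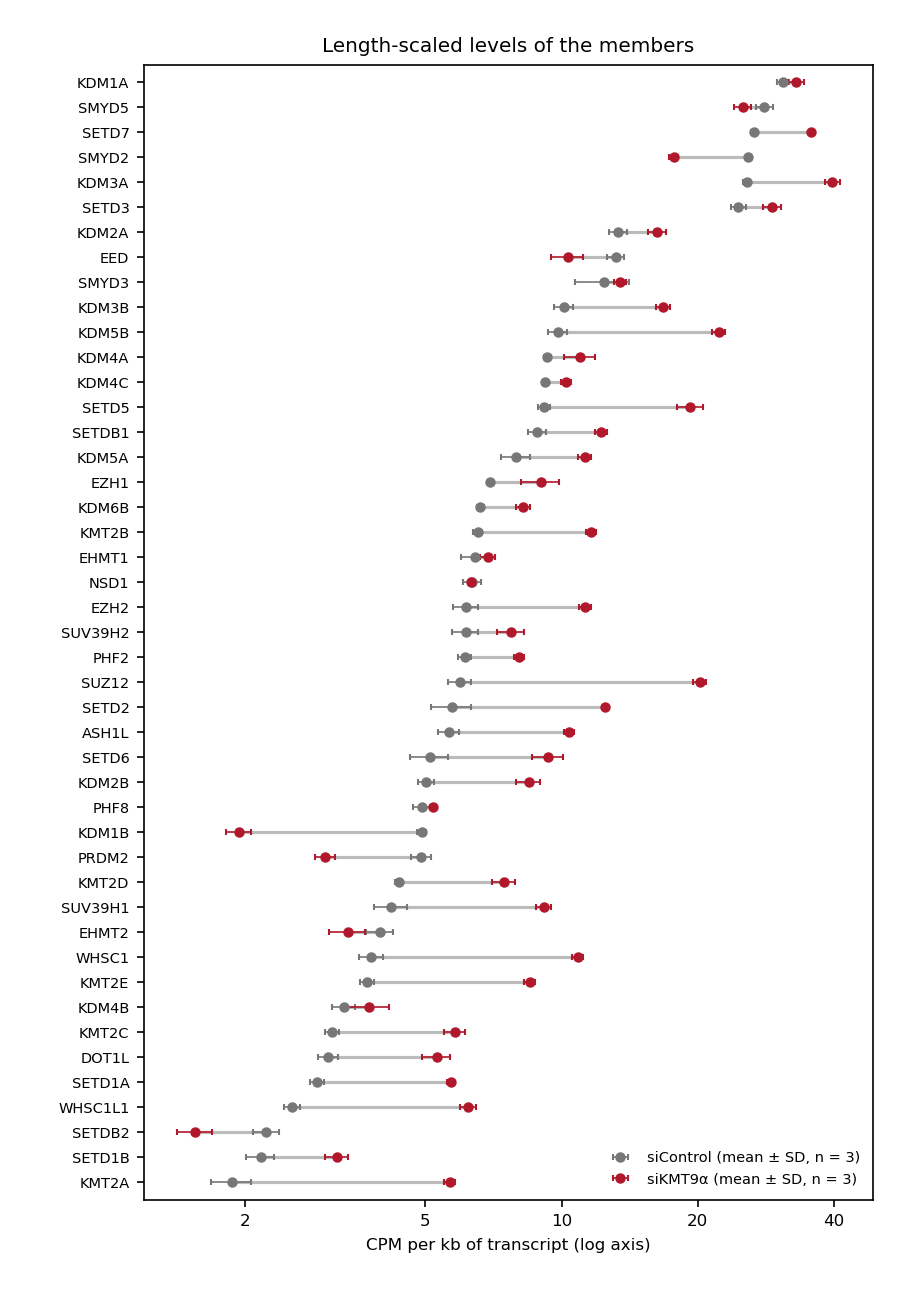
Mean ± SD (n = 3) of CPM per kilobase of transcript on a log axis, for siControl and siKMT9α#1, with the 45 members ordered by their siControl level. KDM1A is highest and KMT2A lowest with siControl, and the grey lines join the means of the groups, with the longest for SUZ12, KMT2A and WHSC1 rightward and for KDM1B leftward.

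More than 1 transcript was tested for 22 members, and each transcript was fitted as its own row. Transcripts of a gene share most of their exons, so they are not independent. In 19 of the 22 members the log2 fold changes of the transcripts lay within 0.2 of each other. The 5 transcripts of EZH2, for example, ran from 0.87 to 0.88. WHSC1 was the clearest exception among well-counted transcripts. Its full-length forms, which end near position 1983930 of chromosome 4, had log2 fold changes of 1.51 to 1.52. The forms NM_007331 and NM_133334, which end earlier, at 1944302 and 1950545, were at 0.99 and 1.02. NM_133334 is nevertheless the longest transcript, with 8373 bases, and WHSC1 was at 1.02 when the longest transcript stood for each gene. All 6 transcripts rose, and the full-length forms, which encode the catalytic SET domain, rose more. SETD3 was the only member whose transcripts were called in both directions, with NM_032233 at 0.24 and the shorter NM_199123 at -0.20 (adjusted p = 0.0162). For PRDM2, 3 transcripts fell, by 0.60 to 0.70 on the log2 scale, and another with few counts, NM_001135610 (mean 13.1 counts), was at 0.31 and was not called.

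The guide strand of siKMT9α#1 could pair through its bases 2 to 8 with the 7-mer ACATTCA in other transcripts, so 3′ UTRs were searched for these letters. The 7-mer was found in 4 of the 45 members (8.89%) and in 11.9% of 12868 genes with an annotated 3′ UTR. The 4 sites are shown because they are the only such matches among the members, with the 7-mer in capitals, in GRCh37 and on the plus strand. They lie in EHMT1 at chr9:140730438-140730461, in NSD1 at chr5:176725437-176725460, in SETD6 at chr16:58553960-58553983 and in WHSC1 at chr4:1982104-1982127.
EHMT1: tcttctaaaaACATTCAtaatgca
NSD1: gttgaaatttACATTCAaagcctc
SETD6: catttgcaaaACATTCAaaatcct
WHSC1: gagggagagaACATTCAgcagcag

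SETD6 and WHSC1 rose, and EHMT1 and NSD1 did not pass the test. With the length offset, NSD1 was called lower (log2 fold change -0.49, adjusted p = 1.20e-08, edgeR). The WHSC1 transcripts NM_007331 and NM_133334 end before the site. KDM1B, PRDM2 and the other members that fell in the fit without the offset held no match. Over all genes the median log2 fold change was -0.21 with the 7-mer and 0.00 without it, and over the members it was 0.48 and 0.47.

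The members that rose did so beside genes of cell proliferation. These are RNA levels and not a measure of growth. In the paper, A549 cells with this siRNA doubled more slowly, and cell cycle phases did not differ significantly on the days measured. Of 13 proliferation genes, 12 rose and 1 fell, with a median log2 fold change of 1.04, and 12 passed the stricter threshold. TOP2A rose from 21.3 to 25.9 CPM with siControl to 152 to 155 CPM with siKMT9α#1 (2.74), MKI67 from 8.21 to 11.1 CPM to 53.8 to 58.4 CPM (2.51), and CDK1 from 15.6 to 20.1 CPM to 64.0 to 70.9 CPM (1.98). The part of these genes' change in the values of EZH2, SUZ12, SUV39H1 and the other members was not tested. The deposited spans of 12 members overlap another protein-coding gene. These are KMT2A, KMT2B, KMT2D, KMT2E, DOT1L, SETD6, SETDB1, SUV39H2, WHSC1L1, KDM2B, KDM4A and KDM5A. Strand-specific counting is not stated in the sources used here.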

How the data were processed

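RNA-Seq was analysed for 6 A549 samples, 3 per group. STAR alignments to hg19 were counted by the authors on RefSeq transcripts using HOMER's analyzeRepeats, and the deposited values are estimated counts without normalization (36.4% of values were not whole, in steps of 0.5). The deposited table also holds the authors' fold changes and p-values, which were not used. Library type and counting options are not given in the sources used here. Of 38767 rows, 1182 without a symbol or counts were left out. Each symbol was represented by the transcript with the largest summed count.

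Counts were rounded and tested with edgeR 4.0.16 in R 4.3.3 (TMM, filterByExpr, quasi-likelihood F test, two-sided, Benjamini-Hochberg over 13877 genes). The stricter threshold is the one in the study's methods, which name EdgeR without the test. The study reported more differentially expressed genes than the 3357 that passed this threshold here. The reason for the difference was not tested. The biological coefficient of variation was 4.47%. The standard error is the log2 fold change divided by the square root of F. Replicates of a group differed by more than sampling noise (chi-square per gene 1.36 to 5.28, against 106.7 to 142.0 between groups). Positions, exons, 3′ UTRs and GC contents came from GENCODE 44 on GRCh37, which matched all 45 members. The fit was tested on simulated data. Alternatives were the likelihood-ratio test, DESeq2 1.42.0, library size alone, RLE factors, other filters, the longest transcript, each transcript as its own row, a block for the replicate number, a length offset and each sample left out. GC and length offsets together were an alternative chosen after seeing the data.

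The members, the gene lists and the length classes were chosen with earlier results of these data known. All members were named, with values per sample for those past the stricter threshold and for EZH1, and of each other list at most the 3 largest changes past that threshold with a mean of at least 1 CPM. Exceptions chosen after their values were seen are the marker genes named. A gene of the cell type marker lists is not reported here.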

Additional observations from a re-analysis of the deposited data

How the results depend on the processing

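Direction and side of the adjusted p were kept by at least 42 of the 45 members under every alternative other than the library size alone and the fits with a length offset. Of the summaries, genes past the stricter threshold numbered 3357, but 5962 with the likelihood-ratio test, 6070 without the filter, 2342 with the replicate number as a block and 1770 with the block and GC and length offsets. The replicate numbers did not pair the samples (correlations of deviations -0.08, 0.02 and -0.08), and with the replicate block 39 members changed and 18 passed the stricter threshold, 1 of them lower. The members' median was 0.37 with the library size alone, which shifted all genes by -0.11 and left 41.2% of called genes higher in place of 49.1%, 0.25 with the length offset, with or without the block, 0.30 with GC and length offsets, and 0.31 with these and the block. With DESeq2, 4773 of all genes tested passed the stricter threshold. Members past it were 26 with DESeq2, 28 with the likelihood-ratio test and 29 without the filter, of which 23, 25 and 26 were higher. Members past it were 13 with block and length offset and 12 with block, GC and length offsets. Those higher were 13 with the length offset, 11 with it and the block, and 10 with block, GC and length offsets, and 1 was lower with the longest transcript. With each sample left out, 37 to 39 members changed, 19 to 24 passed the stricter threshold, of which 1 to 2 were lower, the median was 0.44 to 0.51, and 19 of the 22 passed it every time.

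With the library size alone, EHMT1 was at -0.0097, KDM1A at -0.010 and PHF8 at -0.025. With the length offset EHMT1 was at -0.089, KDM4B at -0.042, PHF8 at -0.163 and KDM2A at -0.023, and with the block as well at -0.092, -0.041, -0.160 and -0.023. With GC and length offsets KDM4C was at -0.027 and PHF8 at -0.143, and with the block as well at -0.025 and -0.140. NSD1 ran from -0.042 to 0.019 with each sample left out, above 0 without siControl replicate 1 or 3. The causes were not tested.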
